A study of Homo sapiens with 18 samples.

Results

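The enzymes and remodelling proteins that write, erase and move chromatin marks were followed in the human embryonic stem cell line H1, an established line, during treatment with Wnt3a. Members were found by gene symbol. They comprise the DNA methyltransferases (DNMT), the TET dioxygenases, the core of Polycomb repressive complex 2 (EZH1, EZH2, SUZ12 and EED), the lysine demethylases (KDM), the MLL and SETD genes, the arginine methyltransferases (PRMT), the histone deacetylases (HDAC), the sirtuins (SIRT) and the CHD, ARID and SMARC remodelling genes. Of 10975 genes listed for the first wild-type series, 91 carried such a symbol. The 91 include 6 MLLT genes, which are named as fusion partners of MLL and not as enzymes. DNMT3B and MLLT6, 2 of the 91, were also among the 497 genes listed for the SP5 mutant experiment. RNA-Seq had been performed on cells kept in Wnt storage buffer (called 0 h) and on cells given 1 nM Wnt3a for 12, 24 or 48 h. There was 1 library at each time in the first wild-type (WT) series, in a second WT series (WT Rep. 2) and in each of 2 clones, dZF1 and dZF2. Each clone was grown from a single H1 cell in which CRISPR-Cas9 had deleted the part of SP5 that encodes its zinc fingers, so clone and genotype cannot be told apart, and no p-value is given anywhere. Binding of the SP5 protein was available as 2 lists of ChIP-Seq peaks.

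DNA methyltransferases add methyl groups to cytosine. DNMT1 copies the pattern after replication, whereas DNMT3A and DNMT3B set it on unmethylated DNA, and the TET enzymes oxidise the mark and so allow its removal. Pluripotent human cells are known for high DNMT3B and TET1. Polycomb repressive complex 2 methylates lysine 27 of histone H3 at silent developmental genes, while the MLL family methylates lysine 4 at active promoters and enhancers. Histone demethylases and deacetylases reverse histone marks, and SWI/SNF, ISWI and CHD proteins use ATP to slide or evict nucleosomes.

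Expression was given as RPKM, the number of reads scaled by transcript length and by the mapped reads of the library, which allows levels of different genes to be compared per length. The deposited values were rounded to 1 decimal, and the number of reads behind them is unknown. Each listed gene had an RPKM of at least 4 in some library, so a gene that is not listed lay lower throughout or was removed before deposition. Among the genes of these families without a row were DNMT3L, TET2, KDM6B, HDAC4, HDAC10, SIRT2, CHD3, CHD5, SMARCA2 and ARID5B. Changes are given as log2 of RPKM plus 1, relative to 0 h, and a gene was counted as changed when it passed 2-fold on that scale. Of the pluripotency markers, 9 of 9 were listed, and their summed RPKM was 2852.8, 2766.8, 2448.8 and 2041.7 at 0, 12, 24 and 48 h. SOX2, at 238.3 RPKM before treatment and 105.5 at 48 h, was the 1 among them past 2-fold. POU5F1 was 294.6 RPKM at 0 h and 243.1 RPKM at 48 h, NANOG was at 3.3, 3.1, 5.9 and 3.4 RPKM, and LIN28B was at 44.1, 48.9, 49.4 and 42.8 RPKM. The 9 mesendoderm markers, all listed, summed to 6.5, 128.7, 965.2 and 1144.9 RPKM, and 9 of 9 were past 2-fold at 48 h. MIXL1, EOMES, SOX17 and GATA6 were at 0 RPKM before treatment. None of 5 neural markers was listed, and of 6 fibroblast markers 2 were, COL1A1 at 2.6 to 4.2 RPKM and THY1, which was 195.7 RPKM at 0 h and 95.4 RPKM at 48 h. The 12 proliferation genes had a median log2 change of -0.15 at 48 h, and 0 of them passed 2-fold.

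DNMT3B and MLLT6 are the members with both a time course and values in the mutant clones, MLLT3 is the member with the largest decrease, and MLLT6 and ARID1B have an SP5 peak near a start site. Their sequences are therefore shown here. Capitals mark the GC box GGGCGG bound by SP family proteins, its variant GGGAGG, and CTTTGAT, the core recognised by TCF/LEF factors, each on either strand. Neighbouring matches can share bases. The promoters are the 300 bases that RefSeq (GRCh38.p14) gives around each start, and they were located by exact match in GRCh37, the build of the deposited peaks. They lie at chr20:31367408-31367707 on the plus strand for DNMT3B, chr17:36861276-36861575 on the plus strand for MLLT6 and chr9:20622449-20622748 on the minus strand for MLLT3. The windows of 100 bases to each side of a peak summit are on the plus strand of GRCh37, at chr17:36860133-36860333 for MLLT6 and chr6:157468163-157468363 for ARID1B.
DNMT3B promoter: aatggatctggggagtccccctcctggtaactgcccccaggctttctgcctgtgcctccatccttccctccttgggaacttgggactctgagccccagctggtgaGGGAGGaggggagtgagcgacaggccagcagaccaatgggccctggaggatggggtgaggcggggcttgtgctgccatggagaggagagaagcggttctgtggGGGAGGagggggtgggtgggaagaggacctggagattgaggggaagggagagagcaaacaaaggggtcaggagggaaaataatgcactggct
MLLT6 promoter: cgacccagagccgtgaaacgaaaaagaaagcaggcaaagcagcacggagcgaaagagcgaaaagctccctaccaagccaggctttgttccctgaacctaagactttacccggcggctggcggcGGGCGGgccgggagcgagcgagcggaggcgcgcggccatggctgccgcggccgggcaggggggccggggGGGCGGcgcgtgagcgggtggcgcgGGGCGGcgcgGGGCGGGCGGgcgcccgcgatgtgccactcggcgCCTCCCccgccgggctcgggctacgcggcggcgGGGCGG
MLLT3 promoter: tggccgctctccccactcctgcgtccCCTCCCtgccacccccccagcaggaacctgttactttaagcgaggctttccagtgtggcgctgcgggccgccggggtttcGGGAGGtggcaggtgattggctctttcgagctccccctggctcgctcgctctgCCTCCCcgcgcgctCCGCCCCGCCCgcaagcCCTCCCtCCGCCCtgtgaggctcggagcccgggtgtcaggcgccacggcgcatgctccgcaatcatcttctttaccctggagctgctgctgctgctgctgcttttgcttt
MLLT6 summit: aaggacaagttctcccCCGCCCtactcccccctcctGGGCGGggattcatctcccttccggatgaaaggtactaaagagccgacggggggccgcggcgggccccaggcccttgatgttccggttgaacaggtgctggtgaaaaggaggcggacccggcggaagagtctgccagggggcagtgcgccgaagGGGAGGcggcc
ARID1B summit: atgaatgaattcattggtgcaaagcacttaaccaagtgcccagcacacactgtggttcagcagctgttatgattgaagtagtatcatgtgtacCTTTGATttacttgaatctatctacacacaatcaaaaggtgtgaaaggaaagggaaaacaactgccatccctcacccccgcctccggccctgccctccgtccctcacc
The DNMT3B window lies inside the gene, which begins at chr20:31350191 in the annotation used for the peaks. It therefore does not show the sequence at the first start of DNMT3B, whereas the windows of MLLT6 and MLLT3 hold the first start of their gene. This internal DNMT3B window held 0 GC boxes and 2 GGGAGG variants, that of MLLT6 6 and 1, and that of MLLT3 3 and 4. For the shares that follow, 1 promoter was taken per gene, and it need not lie at the first start, as for DNMT3B. Of the members, 80 had a promoter in the RefSeq table, and 55 of these (68.8%) held GGGCGG, beside 72.2% of the 8767 listed genes with a promoter and 44.6% of all 27305 promoters. GGGAGG occurred in 51 of the 80 (63.8%), beside 58.9% of the listed genes and 48.1% of all promoters. CTTTGAT occurred in 1, that of CHD2, which is 1.25% beside 1.29% of the listed genes and 2.64% of all promoters. The median GC content of the members' promoters was 66.5%, and that of the listed genes' promoters 65.7%.

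Most of the chromatin genes kept their level while the mesendoderm markers rose. At 12 h and at 24 h, 0 of the 91 members were past 2-fold, when 1.96% and 3.98% of all listed genes were. At 48 h, 2 of 91 (2.20%) were, against a background of 7.82% of all listed genes. MLLT6 was higher and MLLT3 was lower. The median log2 change of the members was -0.04, -0.03 and -0.01 at the 3 times, and that of all listed genes was -0.01 at 12 h and 24 h and 0.00 at 48 h. The middle of the distribution was narrower for the members, with quartiles of -0.18 and 0.18 at 48 h against -0.27 and 0.27 for all genes. Restricted to genes that reached 10 RPKM in some library, the quartiles were -0.17 and 0.21 for 69 members and -0.25 and 0.24 for 7932 genes.

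**Figure D1:**
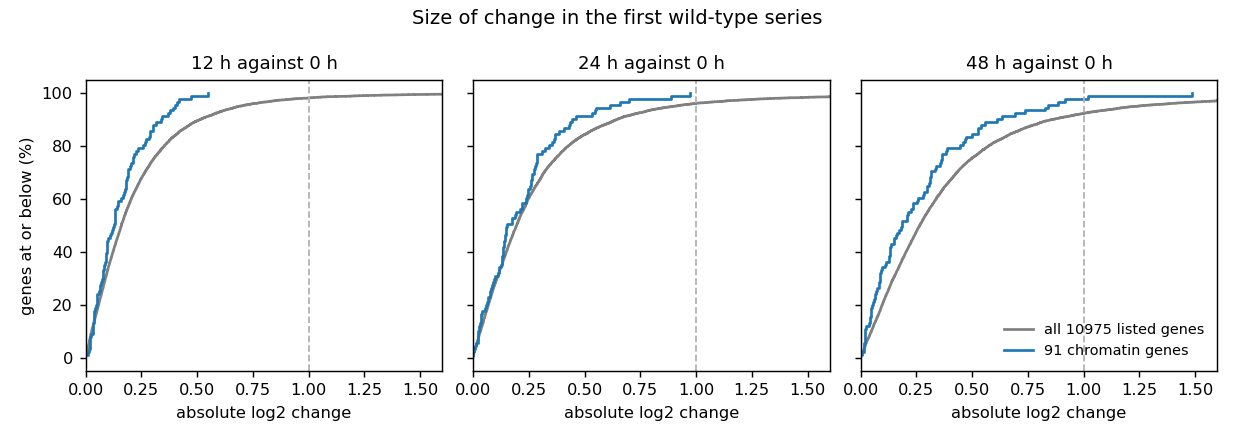
Cumulative share of genes (%) by the size of their log2 change against 0 h, regardless of direction, at 12, 24 and 48 h, for the 91 chromatin genes (blue) and all 10975 listed genes (grey), with 2-fold as a dashed line. The blue curve reaches 100% before the dashed line at 12 and 24 h, and at 48 h the median size of change is 0.18 for the chromatin genes and 0.27 for all genes.

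As a whole, the RPKM of the 91 genes summed over the 4 successive libraries to 2834.8, 2672.4, 2702.5 and 2662.2, or 0.723%, 0.682%, 0.686% and 0.689% of the sum of all listed genes. They spanned levels from 1.0 to 393.8 RPKM. The median of their mean levels over the 4 libraries was 17.2 RPKM, beside 15.0 for all listed genes. Only DNMT3B, PRMT1 and SMARCE1 averaged at least 100 RPKM, and 27 averaged under 10. Of the 91, 30 were highest at 0 h and 32 at 48 h, which is 33.0% and 35.2%, beside 28.4% and 31.8% of all listed genes. At each successive time 8 were higher than before and 8 were lower, which is 8.79% each, beside 8.15% and 9.21% of all listed genes.

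The 3 DNA methyltransferases summed to 492.2, 402.3, 370.2 and 306.9 RPKM, most of it DNMT3B. Its successive RPKM values were 393.8, 311.7, 286.1 and 219.2, so that it was lower at each time than at the time before. At 48 h the level was 0.557 of that at 0 h, a log2 change of -0.84 that stays short of 2-fold. DNMT3B was 103rd of 10975 genes by RPKM at 0 h, and its difference of -174.6 RPKM at 48 h was the 28th largest loss in the table. That rank is by plain RPKM and so favours abundant genes. In proportion, 9.19% of all listed genes were at least 1.5-fold lower at 48 h, as DNMT3B was. DNMT3A, the other enzyme that methylates unmethylated DNA, was at 76.5, 69.7, 62.6 and 68.9 RPKM, a log2 change of -0.15 at 48 h. DNMT1, which maintains the pattern, was at 21.9, 20.9, 21.5 and 18.8 RPKM, a log2 change of -0.21. The DNMT3A and DNMT1 libraries thus stayed within a narrow range, and the ratio of DNMT3B to DNMT3A went from 5.15 at 0 h to 3.18 at 48 h. DNMT3B made up 80.0% of the summed RPKM of the 3 genes at 0 h and 71.4% at 48 h. In these bulk samples, fewer cells with DNMT3B and less DNMT3B RNA per cell cannot be told apart. The summed pluripotency and mesendoderm markers moved over the same times, in opposite directions, and their part in the change of DNMT3B was not tested.

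TET1, the dioxygenase characteristic of pluripotent cells, was at 57.3, 58.1, 49.1 and 43.5 RPKM, with a log2 change of -0.39 at 48 h. TET3 was at 9.6, 8.4, 8.0 and 9.5 RPKM and had a log2 change of -0.01. The level of TET1 was 5.97 times that of TET3 at 0 h and 4.58 times at 48 h.

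In the core of Polycomb repressive complex 2, EZH2, the catalytic subunit of dividing cells, was at 20, 21.4, 26.1 and 26.4 RPKM, a log2 change of 0.38. EZH1, the alternative catalytic subunit, was at 5.7, 6.6, 7.3 and 4.2 RPKM, a log2 change of -0.37. EZH2 therefore was 3.51 times as high as EZH1 at 0 h and 6.29 times as high at 48 h, with the shift between 24 h, when the ratio was 3.58, and 48 h. SUZ12, a scaffold of the complex, was at 14.2, 16.1, 14.9 and 16.6 RPKM. EED, which binds the methylated lysine, was at 10.8, 9.8, 13.4 and 9.4 RPKM. Reads of SUZ12, EED, EZH2, TET1 and DNMT3A could in part have been assigned to pseudogenes named after them, as for 16 of the 89 members that could be matched to the annotation, and how such reads were counted is not given in the sources used here.

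**Figure D2:**
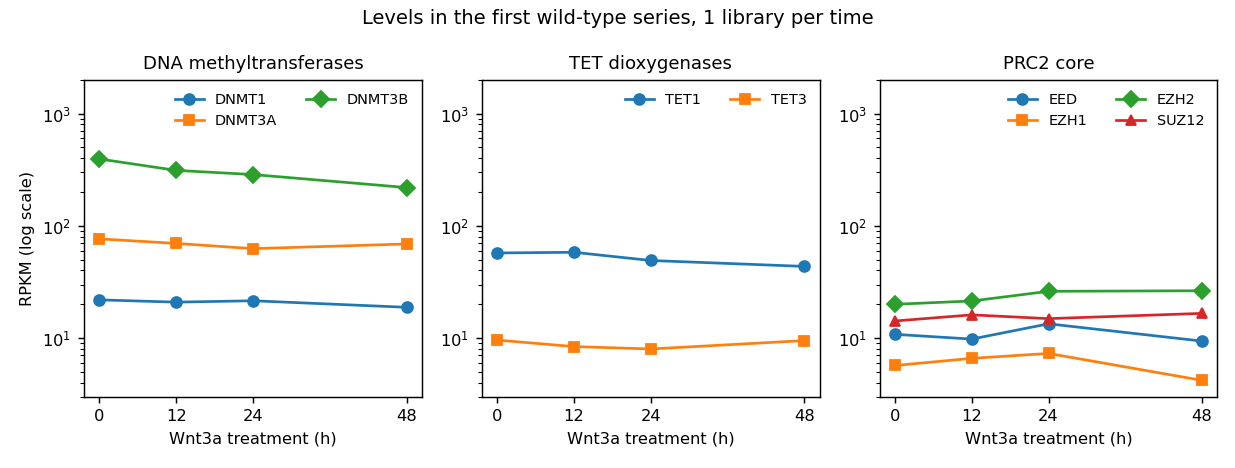
RPKM (log axis) of the listed DNA methyltransferases, TET dioxygenases and core Polycomb repressive complex 2 genes at 0, 12, 24 and 48 h of Wnt3a, 1 library per point and no error bars. DNMT3B runs from 393.8 down to 219.2, TET1 from 57.3 to 43.5, and EZH2 and EZH1 part between 24 and 48 h.

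Counted at 1.5-fold, 10 of the 91 members had changed at 48 h. The 5 that were higher (5.49%, beside 10.4% of all listed genes) were MLLT6, SETD7, SETD8, ARID3A and KDM3A. The 5 that were lower (5.49%, beside 9.19%) were MLLT3, KDM4A, DNMT3B, HDAC9 and KDM4C, the last of which was singled out after its values were seen. At 24 h, ARID3A, MLLT6, SETD7 and SETD8 were higher and KDM4A was lower by that measure (5.49% of the members, beside 12.3% of all listed genes), and at 12 h there were 0, beside 7.79%. MLLT6, SETD7 and SETD8 are listed only through a late library, since each reached the floor of 4 RPKM in a single library, that of 48 h for MLLT6 and SETD8 and that of 24 h for SETD7. Of the 91 members, 4 reached the floor in 1 library (4.40%, beside 5.62% of all listed genes), so these increases carry no weight as a count. All 5 of the lower genes and 4 of the 5 higher genes moved in a single direction from each time to the next, the exception being SETD7, which peaked at 24 h.

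**Figure D3:**
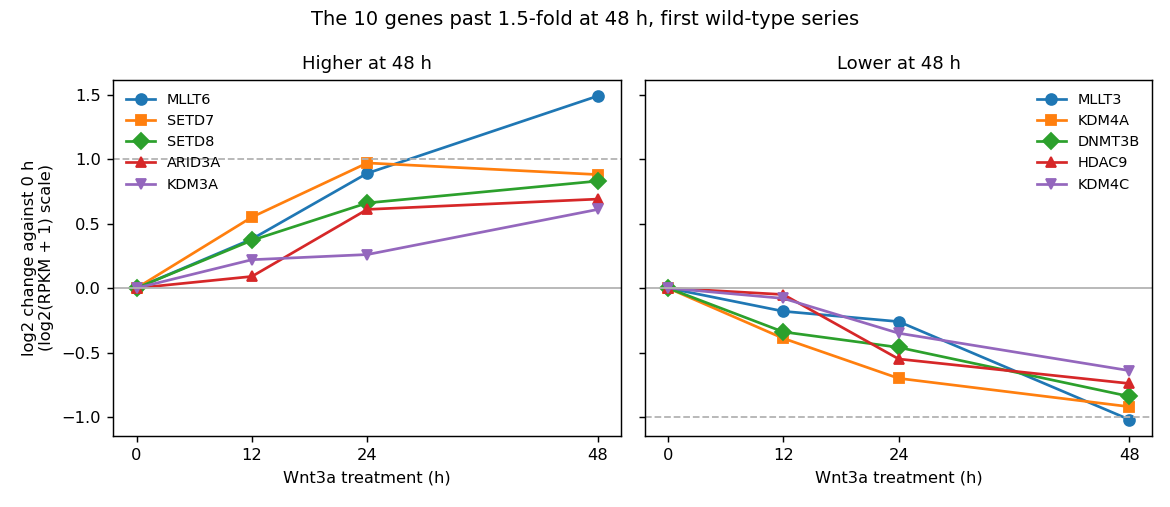
Log2 change against 0 h, on the log2(RPKM + 1) scale, of the 5 genes past 1.5-fold higher (left) and the 5 past 1.5-fold lower (right) at 48 h, 1 library per point, with 2-fold as a dashed line. MLLT6 ends at 1.49 and MLLT3 at -1.02, and the other 8 stay inside 2-fold.

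Among the methyltransferases of lysine 4 of histone H3, MLL (now KMT2A), founder of the mammalian family, had the highest mean level, at 19.3, 17.8, 17.7 and 19.0 RPKM. SETD7, a monomethyltransferase that also acts on proteins other than histones, was at 1.6, 2.8, 4.1 and 3.8 RPKM. It was the gene of this group with the largest increase, 2.37-fold on plain RPKM and 0.88 on the log2 scale with 1 added. MLL4 had the largest decrease, at 5.1, 4.7, 4.5 and 3.9 RPKM. The symbols MLL2 and MLL4 have each been used for KMT2B and KMT2D, so which of these genes a row holds is uncertain. The median log2 change of the 6 genes was 0.00 at 48 h.

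The MLL fusion partners, named for the leukaemia translocations that join them to MLL, held both genes past 2-fold. MLLT6, a PHD finger protein at chr17:36861526-36886048, was at 1.0, 1.6, 2.7 and 4.6 RPKM, and so was higher at each time than at the time before. The ratio of 4.60 at 48 h could lie between 4.33 and 4.89 from rounding alone, and the log2 change was 1.49. MLLT6 is listed only through its 48 h library, so an increase by that time was a condition of its being measured here. MLLT3, a reader of acylated histones in elongation complexes at chr9:20341667-20622498, was at 5.7, 4.9, 4.6 and 2.3 RPKM. Most of its decrease fell between 24 and 48 h, and its log2 change of -1.02 lay just past 2-fold. MLLT11 had the highest mean level of the group, at 56.8, 60.8, 77.0 and 82.2 RPKM, a log2 change of 0.53. Of the 6 partners, 4 were above 0 and 2 below, with a median of 0.19.

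Of the other SET domain proteins, SETD3, a histidine methyltransferase of actin, was the most abundant at 54.7, 49.9, 51.7 and 49.6 RPKM, and it also had the lowest log2 change of the group, -0.14. SETD8 (now KMT5A), which monomethylates lysine 20 of histone H4, was at 2.1, 3.0, 3.9 and 4.5 RPKM, a log2 change of 0.83. The 8 genes had a median of 0.08.

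The lysine demethylases summed to 356.0 RPKM at 0 h and 326.3 at 48 h. KDM1A, a flavin-dependent demethylase of the CoREST complex, was the most abundant at 103.2, 100.5, 93.6 and 82.9 RPKM, lower at each successive time. KDM4A, which demethylates lysines 9 and 36 of histone H3, was at 20.9, 15.7, 12.5 and 10.6 RPKM. Its log2 change of -0.92 was the lowest of the group and just short of 2-fold. The related KDM4C was at 11.9, 11.2, 9.1 and 7.3 RPKM (log2 change -0.64), while the third listed paralogue, KDM4B, was at 10.3, 9.6, 9.3 and 10 RPKM (log2 change -0.04). KDM3A, a demethylase of lysine 9 of histone H3 that is inducible by hypoxia, was at 12.5, 14.7, 15.2 and 19.6 RPKM, a log2 change of 0.61. The median of all 14 was -0.06.

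PRMT1, the principal enzyme of asymmetric arginine dimethylation, was the second most abundant member of the whole set, at 234.9, 205.7, 256.5 and 244.5 RPKM. It had no steady direction, and its log2 change at 48 h was 0.06. PRMT3, which methylates a ribosomal protein, was at 19.2, 19.7, 19.5 and 12.9 RPKM, so that its change of -0.54 arose after 24 h. PRMT2 was at 24.2, 28.2, 25.7 and 31.3 RPKM, a log2 change of 0.36. The median of the 7 arginine methyltransferases was 0.03.

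Histone deacetylases 1 and 2, the paired catalytic subunits of the NuRD and SIN3 complexes, drew closer together. HDAC1 was at 36.6, 39.2, 44 and 54.3 RPKM, a log2 change of 0.56, whereas HDAC2 was at 61.3, 59.9, 63.0 and 58.8 RPKM, a log2 change of -0.06. The ratio of HDAC2 to HDAC1 was 1.67, 1.53, 1.43 and 1.08 at the successive times. HDAC9, a deacetylase that shuttles between nucleus and cytoplasm, was at 5.0, 4.8, 3.1 and 2.6 RPKM, the lowest log2 change of the group at -0.74. Of the 9 deacetylases 7 were above 0 and 2 below, with a median of 0.13. Among the sirtuins, which deacylate proteins at the cost of NAD, SIRT1 was the most abundant at 19.5, 22.4, 21.8 and 15.9 RPKM. SIRT3, a mitochondrial enzyme, was at 8.7, 6.0, 6.3 and 6.0 RPKM, with its decrease complete at 12 h, and SIRT6, a nuclear enzyme, was at 11.1, 9.6, 13 and 14.6 RPKM. The 6 sirtuins had a median of -0.22.

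Most nucleosome remodellers stayed near their starting level. The 7 CHD genes ranged from -0.30 to 0.13 at 48 h, and 10 SWI/SNF subunits from -0.24 to 0.52. CHD4, the ATPase of NuRD, was the most abundant of its family at 80.7, 76.7, 82.7 and 79.9 RPKM. CHD8, which is known to bind beta-catenin, was at 36.8, 33.2, 30.7 and 29.7 RPKM, and CHD7 was at 27.8, 26.0, 27.4 and 30.6 RPKM. Of the SWI/SNF subunits, SMARCE1 was the most abundant, at 112.4, 95.9, 102.4 and 98.7 RPKM. ARID1A, the DNA-binding subunit of the canonical complex, was at 28.4, 30.1, 33.2 and 41.3 RPKM, the largest log2 change of the group at 0.52. Its paralogue ARID1B, which takes the same place in the complex, was at 13.1, 12.9, 12.9 and 12.9 RPKM. SMARCD2 had the lowest log2 change, -0.24, at 51.8, 41.8, 45.8 and 43.8 RPKM. Among the ISWI and other SMARCA ATPases, SMARCA5 was at 46.8, 50.7, 42.6 and 42.7 RPKM, whereas its paralogue SMARCA1 was at 15.5, 16.7, 16.3 and 21.9 RPKM, a log2 change of 0.47. ARID3A, a DNA-binding protein of the ARID3 to ARID5 group, was at 26.3, 28.0, 40.8 and 43.1 RPKM, with most of its change of 0.69 between 12 and 24 h. ARID3B, its closest relative, was at 31.2, 29.9, 31.1 and 27.8 RPKM, so that ARID3A lay below ARID3B at 0 h and above it at 48 h.

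**Figure D4:**
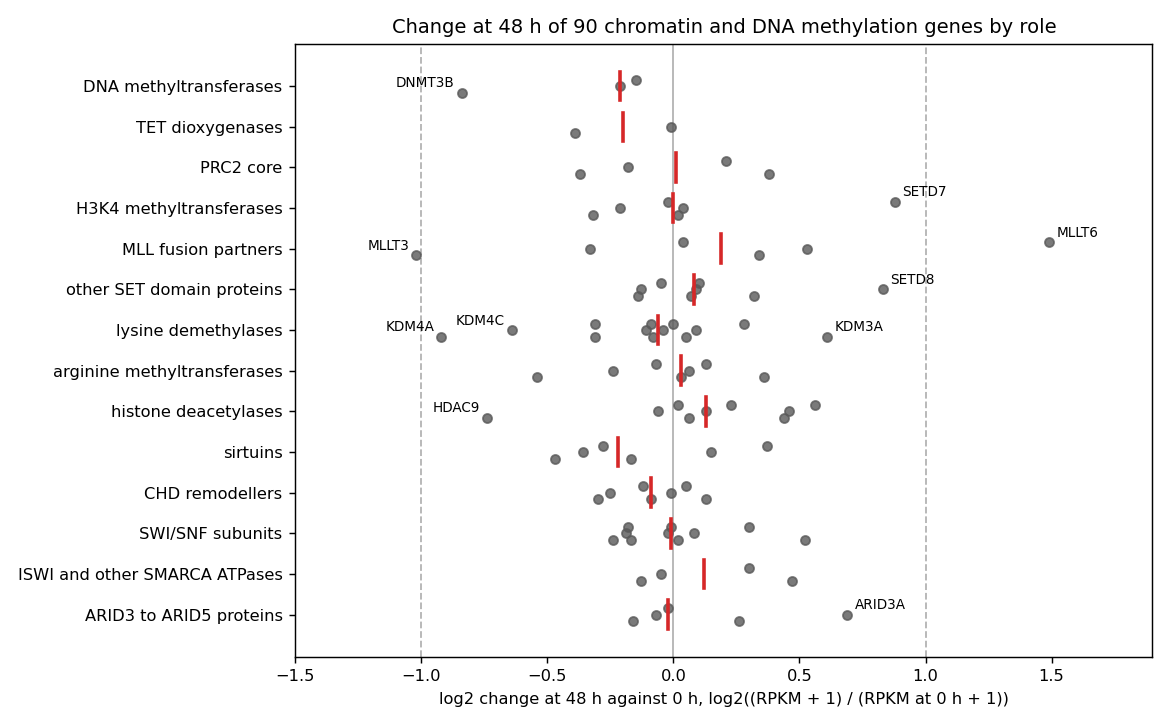
Log2 change at 48 h against 0 h of 90 of the 91 genes, on the log2(RPKM + 1) scale, by role group, with 1 point per gene, the group's median as a red bar and 2-fold as dashed lines (KDM5D is counted in the median and not plotted). MLLT6 at 1.49 and MLLT3 at -1.02 lie past 2-fold, and the group medians lie between -0.22 and 0.19.

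The genes that work with these enzymes but fall outside the symbol rule were read from 7 lists of partners. Of 112 genes, 102 were listed, and 6 of these (5.88%) were past 2-fold at 48 h, beside 7.82% of all listed genes, with a median log2 change of 0.04. In Polycomb repressive complex 1 and the accessory subunits of complex 2, 2 of 21 genes were higher and 0 lower. BMI1, a ring finger subunit of complex 1, was at 1.3, 2.2, 3.2 and 4.3 RPKM and is listed only through its 48 h library, and PHC2, a subunit that lets the complex polymerise, was at 2.8, 0.9, 4.6 and 7.4 RPKM. Among 13 SWI/SNF subunits with other names 1 was past 2-fold, PHF10, a subunit of the polybromo-containing complex, which was higher at 4.7, 9.8, 9.8 and 15.5 RPKM. Among 16 further histone methyltransferases SMYD2 was higher, at 3.1, 5.7, 7.6 and 7.8 RPKM. PRDM14, a pluripotency factor that belongs to the same domain family, was lower, at 31.6, 22.4, 16.1 and 11.5 RPKM. Of 15 genes of acetyltransferases and acetyl-lysine readers, KAT5, the acetyltransferase TIP60, was lower at 8.1, 7.8, 4.3 and 3.5 RPKM. In the lists of NuRD, CoREST and SIN3 subunits (16 listed), of COMPASS subunits of the MLL complexes (10) and of DNA methylation readers and repair proteins (11), 0 genes were past 2-fold at 48 h. At 12 h, 1 of the 102 partners was past 2-fold higher and 2 were lower, beside 1.96% of all listed genes either way. At 24 h, 2 were higher and 1 was lower, beside 3.98%. GADD45B, a stress-inducible protein of the list of DNA methylation readers and repair proteins, was higher at both times, at 3.9, 10.3, 19.2 and 6.3 RPKM. Its relative GADD45G was lower at 24 h, at 7.4, 4.2, 0.5 and 3.8 RPKM. SMYD2 was higher at 24 h. PHC2 was lower at 12 h, as was PCGF1 of the Polycomb list, at 2.6, 0.6, 5.8 and 4.6 RPKM. UHRF1, which guides DNMT1 to newly copied DNA, was at 16.8, 12.6, 13.7 and 15.1 RPKM.

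In the experiment with the SP5 clones, each value was given relative to the highest RPKM of the same gene in WT Rep. 2. DNMT3B and MLLT6 were listed there because the study had selected genes by their response in the first WT series, so their presence is no independent sign of a response. At the 4 times, WT Rep. 2 had DNMT3B at 0.96, 1.00, 0.85 and 0.75, dZF1 at 0.75, 0.69, 0.63 and 0.51, and dZF2 at 0.77, 0.66, 0.73 and 0.57. Within each series the lowest value was that at 48 h. Relative to its own 0 h library, the 48 h level was 0.781 in WT Rep. 2, 0.680 and 0.740 in the clones dZF1 and dZF2, and 0.560 in the first WT series, whose scale is its own. Both clones lay below WT Rep. 2 at all 4 times, as did 11.7% of the 497 genes. With 0.05 added, the clones averaged log2 ratios against WT Rep. 2 of -0.32, -0.53, -0.31 and -0.44 at the 4 times, and they differed from each other by 0.04 to 0.20. The difference was thus there before Wnt3a, when 42.5% of the 497 genes were lower in both clones. Expressed as a change from the 0 h library of the same series, the difference for DNMT3B came to -0.22, 0.01 and -0.12 at 12, 24 and 48 h.

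MLLT6 followed another course. WT Rep. 2 had it at 0.78, 1.00, 0.50 and 0.77, dZF1 at 0.50, 0.69, 0.73 and 1.55, and dZF2 at 0.52, 0.49, 1.06 and 1.69. The clones were below WT Rep. 2 at 0 and 12 h and above it at 24 and 48 h. Of the 497 genes, 42.5% and 43.3% were lower in both clones at 0 and 12 h. At 24 and 48 h, 51.1% and 44.7% were higher in both. The mean log2 ratio of MLLT6 to WT Rep. 2 was -0.57, -0.73, 0.76 and 1.02 at the 4 times. The median of this ratio over the 497 genes was -0.07, -0.02, 0.24 and 0.05. Expressed as a change from the 0 h library of the same series, the difference for MLLT6 came to -0.16, 1.33 and 1.59 at 12, 24 and 48 h. The mean log2 ratio to WT Rep. 2 of 1.02 at 48 h was just past 2-fold, and in that ratio the clones differed by 0.12. By the same measure 14.9% of the 497 genes were past 2-fold either way. The ratio of 48 h to 0 h was 3.10 in dZF1, 3.25 in dZF2, 4.35 in the first WT series and 0.987 in WT Rep. 2. The increase seen in the first WT series was therefore measured in both clones and not in the second WT series. The WT series differed in this ratio by more than the clones did, so the contrast of clones with WT Rep. 2 at 48 h rests on that 1 WT series. MLLT6 was at 1.0 to 4.6 RPKM in the first WT series, where it was 10859th of 10975 genes by RPKM at 0 h.

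**Figure D5:**
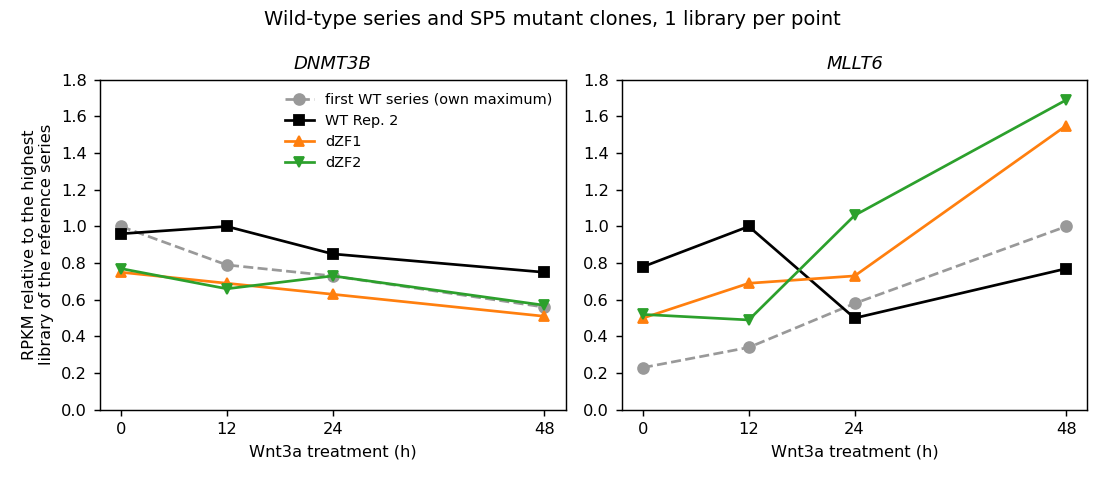
DNMT3B (left) and MLLT6 (right) at 0, 12, 24 and 48 h of Wnt3a in WT Rep. 2, dZF1 and dZF2, as RPKM relative to the highest library of WT Rep. 2, and in the first WT series relative to its own highest library (dashed, not comparable in level), 1 library per point. Both clones lie below WT Rep. 2 for DNMT3B at each time, and for MLLT6 they end at 1.55 and 1.69 while WT Rep. 2 ends at 0.77.

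SP5 peaks were examined at the same genes. The file headers name the same SP5 ChIP library, from Wnt3a-treated cells and carrying the name of another embryonic stem cell line, H9, for both lists, including that of the sample labelled as untreated. The lists differ only in the control library, from buffer-treated or Wnt3a-treated cells, so they do not compare binding with and without Wnt3a. Of the 89 members that could be matched to the GENCODE annotation of GRCh37, 2 (2.25%) had a peak summit within 2000 bases of a transcript start, beside 2.07% of 10651 listed genes. The peak of MLLT6, at chr17:36859559-36860752, was the same in both lists. Its summit lay 1293 bases upstream of the start of MLLT6, over an exon of a noncoding transcript, with 62 tags, an 11.2-fold enrichment over the buffer-treated control and 8.42-fold over the Wnt3a-treated control. Its false discovery rate was 3.33% and 5.17%, against a median over all peaks of 69.6% and 39.7%. The summit window printed above contained 2 GC boxes and 1 GGGAGG, and such boxes occurred in 36.4% and 47.5% of the windows at 804 distinct summits.

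The peak of ARID1B, at chr6:157468055-157468779, lay in an intron, 1600 bases upstream of an internal transcript start and 371109 bases from the first start of the gene. It was weaker, with 26 tags and a false discovery rate of 47.3% and 13%. Its window contained neither form of the GC box but 1 CTTTGAT, found in 4.23% of the summit windows. ARID1B kept its level in the first WT series and was not among the genes listed for the clones. No peak summit lay within 2000 bases of a start of DNMT3B, of the TET genes or of the core genes of Polycomb repressive complex 2.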

How the data were processed

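For RNA-Seq, the authors used TopHat (build hg19) and then Cuffdiff to obtain RPKM; the submitters' processing notes name Bowtie 0.12.7 and SAMtools 0.1.12a, and the TopHat version, annotation and strand setting are not given in the sources used here. Libraries were made from total RNA depleted of ribosomal RNA. The authors deposited RPKM for 10975 genes, the same genes as a fraction of their highest RPKM, and for 497 genes the fraction each WT Rep. 2 library had of the highest of that series, with the clones as a ratio to that highest RPKM. The deposited peaks (MACS 1.4.2) give a count of tags, a score from the p-value, a fold over control and, in percent, a false discovery rate; per the file headers there were 18641194 ChIP tags and 19031237 or 20618344 control tags. Depth of the RNA libraries is unknown. A deposited table of fold changes and p-values from the authors' own comparisons was not used, and 0 columns of sample values remained unused.

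Log2 changes were computed with 1 added to RPKM and 0.05 to the relative values, and tables scaled separately were not compared in level. Peak summits were assigned to transcript starts of GENCODE release 44 lifted to GRCh37. Of 8 older symbols, 6 were matched through RefSeq synonyms and 2, MLL2 and MLL4, were not. The genes named were all DNMT, TET and core Polycomb members, those past 2-fold, in the mutant table or near a peak, for each other role the most abundant gene and those with the largest and smallest change at 48 h, and partners past 2-fold at 48 h. KDM4B, KDM4C, CHD2, UHRF1, PCGF1, GADD45B and GADD45G were added after their values were seen. Members, roles and lists were chosen with earlier results of these data known. The change and call steps were tested on simulated data with planted changes far larger than 2-fold. Changes near 2-fold at a few RPKM were not covered. Python 3.11.15, numpy 2.4.6, pandas 2.3.3 and matplotlib 3.10.9 were used. Alternatives were other pseudocounts, a minimum of 10 RPKM, centring, scaling to equal sums, a 1.5-fold threshold, each clone left out, and other peak distances and lists.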

Additional observations from a re-analysis of the deposited data

How the results depend on the processing

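Of 154 recomputed values, 136 kept their call or moved by less than 0.1 on the log2 scale (counts by at most 1.5 times). A gene short of 2-fold kept its call however much it moved below that. For DNMT3B in the clones at 24 h, the log2 ratio went from -0.31 to 0.01 as a change from 0 h and counts among the 136. The number of chromatin genes past 2-fold depended on how low values were treated. With 0.1 added it was 2 at 24 h and 4 at 48 h, where SETD7 (1.20) and SETD8 (1.06) joined. With 5 added, and among genes that reached 10 RPKM, it was 0 at 48 h, MLLT6 then being at 0.68 and MLLT3 at -0.55 with 5 added. At a 1.5-fold threshold it was 5 at 24 h and 10 at 48 h. The number of partners past 2-fold was 2 with 5 added. Centring on all listed genes and scaling to equal sums changed no count and no median by 0.1. Neither step could move values much. The median of all listed genes was already -0.01 at 12 h and 24 h and 0.00 at 48 h. The summed RPKM of the libraries lay between 386320.0 and 393760.8. A minimum of 10 RPKM cannot change the value of a single gene. Such values count among the 136 all the same. In the clones, the mean log2 ratio of MLLT6 to WT Rep. 2 at 48 h was 0.91 with 0.2 added and between 0.96 and 1.09 with a clone left out. As a change from the 0 h library of the same series this log2 ratio was -0.16, 1.33 and 1.59 at 12, 24 and 48 h. Without that step, the log2 ratio at 24 h was between 0.50 and 1.01 with a clone left out. The number of members with an SP5 peak was 0 within 1000 bases (1.69% of all listed genes), and 1, MLLT6 (1.12%), at a false discovery rate of at most 5% (0.263%) or with a single start site per gene (1.41%). Within 5000 bases it was 3 (3.37%, beside 2.36% of all listed genes), with SMARCD1 added. Why these values moved was not tested. No paired analysis was possible because 1 library per series and time allows no test. Changes within a series are given as values for DNMT3B and MLLT6. Unknown read depth limits what can be said of genes at a few RPKM, such as MLLT6.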

Other observations

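At larger distances from a member's start site, SP5 summits lay closer to the start of another gene in the cases given here. A summit 48232 bases from a start of DNMT1 lay 11 bases from the start of SHFL, and 1 that was 28675 bases from ARID5A lay 41 bases from that of NEURL3. The summit 3938 bases upstream of SMARCD1 was called only against the Wnt3a-treated control and lay 764 bases from a start of ASIC1.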
